A study of Homo sapiens with 9 samples.

Results

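TGF-β ligands, their receptors and closely tied genes were followed through the gene arrays of MDA-MB-231 cells, a human triple negative breast cancer line. The genes were chosen by name and role, with earlier results of these arrays known. They were the ligands TGFB1, TGFB2 and TGFB3, the receptors TGFBR1, TGFBR2 and TGFBR3, the co-receptor ENG, the latency protein LTBP1 and the target gene TGFBI. They are 9 of the 18417 genes that had a probe with a single gene symbol, and each of them had 1 such probe. Cells were treated for 24 hours with 2.5μM SID peptide (SID, 3 arrays) or with the scrambled control peptide (SCR, 3 arrays), or were left untreated (UT, 3 arrays). The SID peptide is a decoy of the SIN3 interaction domain of the repressor MAD1, and it occupies a domain of the SIN3 co-repressors that MAD1 and TGIF1 also bind. All groups are labelled as this line in culture, without the stroma that is a main source of TGF-β in a tumor, and markers that go against the label are given with the array values. The labels give 24 hours for every array, but a supplementary table of the study heads SCR replicate 3 with a longer time, so the time of that array, and of any difference that rests on it, is not certain.

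TGF-β is secreted in a latent form, folded into its own propeptide and tied by latent TGF-β binding proteins to the extracellular matrix. Once freed by integrins or proteases, it binds the type II receptor TGFBR2, which phosphorylates the type I receptor TGFBR1. TGFBR1 then phosphorylates SMAD2 and SMAD3, which enter the nucleus with SMAD4. TGIF1, which recruits SIN3, is a repressor in this pathway. In breast cancer the pathway is known for restraining growth early on and for promoting epithelial-mesenchymal transition and invasion later.

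The promoters of TGFB2 and TGFBR2 are shown because these genes had the largest differences between SID and SCR cells among the 9 in replicates 1 and 2, in opposite directions. Each is the 250 bases before the most upstream start in RefSeq, build GRCh38.p14, on the plus strand, for TGFB2 at chr1:218345086-218345335 and for TGFBR2 at chr3:30606106-30606355. Capitals mark 3 short motifs, each searched on both strands. They are the core TGTCA bound by TGIF1, the E-box CACGTG bound by MAX with MAD1 or MYC, and the SMAD box CAGAC.
TGFB2: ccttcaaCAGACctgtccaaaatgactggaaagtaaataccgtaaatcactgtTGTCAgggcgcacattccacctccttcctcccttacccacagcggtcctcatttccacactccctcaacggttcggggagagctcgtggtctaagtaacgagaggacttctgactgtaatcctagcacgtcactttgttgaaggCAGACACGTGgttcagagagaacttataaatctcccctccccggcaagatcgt
TGFBR2: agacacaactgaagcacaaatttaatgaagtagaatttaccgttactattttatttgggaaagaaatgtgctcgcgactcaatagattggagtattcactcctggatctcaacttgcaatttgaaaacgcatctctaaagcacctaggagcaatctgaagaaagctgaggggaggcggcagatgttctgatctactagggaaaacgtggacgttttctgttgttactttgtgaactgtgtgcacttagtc
The TGFB2 window held 1 TGTCA at 197 bases upstream of the start, CAGAC at 243 and at 53 bases, and 1 CACGTG at 49 bases that overlapped the nearer CAGAC. The TGFBR2 window held none of the motifs, and neither did the other of its 2 windows in the table. All 9 genes matched the promoter table, with 20 windows in all. TGTCA stood in 30.0% of them and in 34.0% of all 35116 windows of this length. CACGTG stood in 10.0% of the members' windows and in 6.34% of all windows, and CAGAC in 45.0% and 38.0%. These shares were near the background, and a match is not evidence of binding.

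Array values are log2 signals as deposited, so a difference of 1 is a 2-fold difference. Replicates 1 and 2 of SID and SCR formed a set apart from the other 5 arrays, which are replicate 3 of SID, replicate 3 of SCR and the 3 UT arrays. The correlation across probes was 0.963 to 0.995 within the first set, 0.992 to 0.997 within the second and 0.908 to 0.929 between them. Markers went against the cell line label in both sets. MDA-MB-231 is known to lack CDKN2A and its neighbor MTAP, and CDKN2A read 7.85, 7.58 and 11.17 in SID, 9.91, 10.03 and 10.97 in SCR and 10.97, 11.21 and 10.96 in UT arrays. MTAP read 6.43, 6.36 and 9.52 in SID, 8.19, 8.35 and 9.37 in SCR and 9.43, 9.31 and 9.51 in UT arrays. Both genes were thus high in replicate 3 and in UT cells, and in replicates 1 and 2 they were lower in SID than in SCR arrays, CDKN2A being near 10 in SCR. SMAD4, which this line is known to express, lay between 5.69 and 6.11 in the second set and between 10.60 and 11.18 in the first. The adhesion gene CDH1, an epithelial marker that this line is known not to express, read 7.05, 7.26 and 6.91 in SID, 10.13, 11.08 and 6.73 in SCR and 6.89, 6.81 and 6.87 in UT arrays. Of 8 luminal and epithelial markers, 7 were lower in SID than in SCR over replicates 1 and 2, as were 8128 of all 19460 probes. There GATA3, FOXA1 and CDH1 passed the test, with a limma adjusted p under 0.05 and a difference past 1. Of all probes 2.64% were called lower by this rule. KRT18 (-0.95, limma adjusted p = 0.0188) and EPCAM (-0.92, adjusted p = 0.0385) fell short of the 2-fold limit. By adjusted p alone 13.6% of all probes passed. EPCAM, another epithelial marker, read 9.74, 10.14 and 6.14 in SID, 10.78, 10.94 and 6.30 in SCR and 6.71, 6.87 and 6.39 in UT arrays. CDH1 thus went against the label in SCR replicates 1 and 2, and EPCAM was high in the whole first set. The median of the list was 8.50 and 8.61 in SID and 9.84 and 10.49 in SCR arrays of these replicates, against 7.11 to 7.38 in the other 5 arrays. Its genes did not go one way between the sets: the mean of replicates 1 and 2 minus that of the other 5 arrays was 3.92 for EPCAM, 2.04 for CDH1 and 1.89 for GATA3, but -1.11 for FOXA1, -0.71 for KRT18 and -0.68 for KRT8. None of the 6 fibroblast or 3 leukocyte markers passed the test in replicates 1 and 2, against 4.41% of all probes. Of 6 endothelial markers CDH5 passed, being lower in SID. Between the array sets, 3 of 6 fibroblast, 1 of 3 leukocyte and 2 of 6 endothelial markers did not overlap, against 32.0% of all probes. The leukocyte marker CD68 lay between 12.44 and 12.98 in the first set and between 9.99 and 10.63 in the second. The leukocyte markers PTPRC, at 4.84 to 5.07 over all arrays, and CD3E, at 6.11 to 6.39, overlapped between the sets. The fibroblast marker LUM lay between 5.04 and 5.88 in the first and between 6.67 and 7.14 in the second. AXL, a receptor kinase abundant in this line, read 13.31, 13.28 and 9.96 in SID, 12.95, 13.20 and 9.95 in SCR and 10.06, 10.14 and 10.02 in UT arrays, so it was high in replicates 1 and 2 alone. VIM, a mesenchymal gene abundant in this line, lay between 13.19 and 13.34 in the first set and between 12.75 and 13.01 in the second. All 5 listed genes high in this line (VIM, CD44, AXL, CAV1 and MSN) were higher in the first set without overlap. Of all probes 32.0% did not overlap in either direction. The gap of the means was past 1 in 3 of these 5 genes, against 10.4% of all probes. The hormone receptor PGR, which this line lacks, read 5.61 to 5.75 over all arrays. In bulk RNA, fewer cells of a type and less RNA per cell cannot be told apart. The samples keep the groups of their labels here, and the part of these marker differences in the values that follow was not tested. Because of the split, the comparison of SID with SCR is given on all arrays, within replicates 1 and 2, and as a difference with no test in replicate 3.

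On all arrays, none of the 9 genes passed the test between SID and SCR cells. limma was fitted to all 9 arrays over 19460 probes, and a call needed a Benjamini-Hochberg adjusted p under 0.05 and a log2 difference past 1. By this rule 0.0% of all probes were called. At an unadjusted p under 0.05, 0 of the 9 genes passed, against 7.57% of all probes, and the t-test of the same values passed 378 probes before adjustment. The lowest adjusted p among the 9 genes was 0.67, for TGFBR3. Within replicates 1 and 2 the picture was different: TGFB2 and TGFBR3 were higher and TGFBR2 was lower in SID than in SCR cells by limma's adjusted p, although none of them passed the 2-fold limit. These are 3 of 9 genes, against 13.6% of all probes, and 0 of 9 with the 2-fold limit, against 4.41%. Before adjustment 5 of 9 genes passed, against 31.2% of all probes. That fit used 4 arrays (SID replicates 1 and 2, SCR replicates 1 and 2). Without any 1 of them, a single array stood for a group, so these fits cannot decide which genes pass. The difference then ran from 0.74 to 0.94 for TGFB2, -1.19 to -0.78 for TGFBR2 and 0.42 to 0.55 for TGFBR3. The t-test on the 4 arrays gave none of the 9 genes after adjustment. A fit with the replicate number as a block left 1 residual degree of freedom. There TGFBR1 and ENG also passed, making 5 of 9 genes, against 17.9% of all probes. In replicate 3 none of the 9 genes differed by more than 0.3, against 7.86% of all probes.

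**Figure D1:**
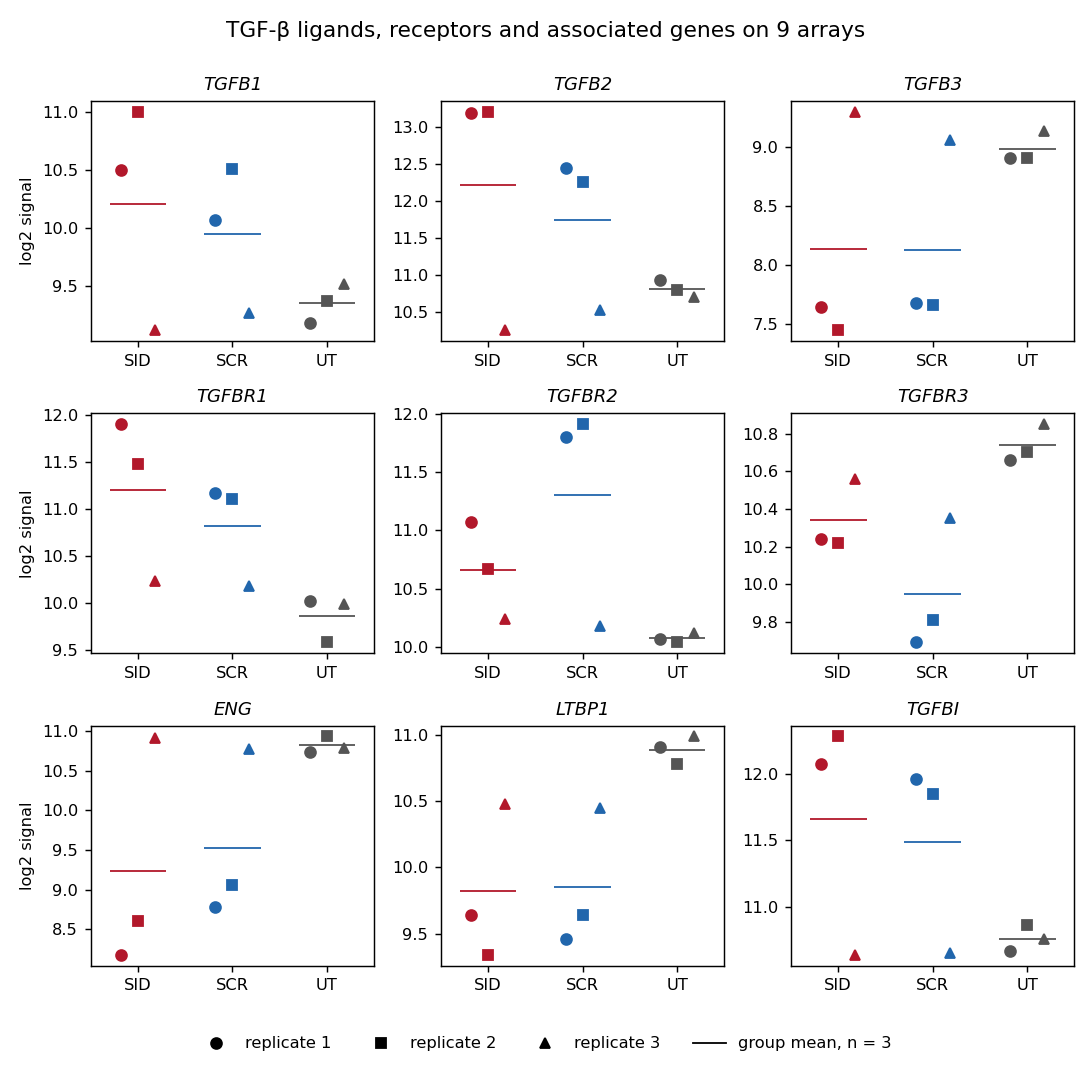
The log2 signal of the 9 genes (vertical axes, scaled to each gene) in SID, SCR and UT cells, with a point for each array, its shape giving the replicate, and a line at the mean of 3 arrays. In every panel replicate 3 of SID and SCR lies nearer to the UT arrays than replicates 1 and 2 do, as for TGFB2 with 10.26 in SID and 10.53 in SCR replicate 3 against 10.71 to 10.93 in UT arrays.

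Of the ligands, TGFB1 is the most widely made form, and TGFB2 differs from the other two in needing the co-receptor TGFBR3 to bind its receptors well. TGFB2, on chromosome 1, read 13.19, 13.20 and 10.26 in SID, 12.45, 12.25 and 10.53 in SCR and 10.93, 10.80 and 10.71 in UT arrays. The SID values of replicates 1 and 2 were the highest of all, and the ranges of SID and SCR did not overlap there, while replicate 3 lay below UT in both groups. SID minus SCR came to 0.74, 0.94 and -0.27 in replicates 1 to 3. The mean of the first 2 replicates was 0.84 (95% interval 0.57 to 1.11, limma adjusted p = 0.0219), and over all arrays it was 0.47 (SE 0.84, adjusted p = 0.945). Its percentile among all probes was 98.9 in SID replicates 1 and 2, 96.3 to 97.1 in these replicates of SCR and 77.0 to 86.2 in the other 5 arrays.

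TGFB1, on chromosome 19, read 10.50, 11.00 and 9.12 in SID, 10.07, 10.51 and 9.27 in SCR and 9.18, 9.37 and 9.52 in UT arrays. Within each of replicates 1 and 2 the SID value was the higher, by 0.43 and 0.49, but replicate 2 of each group was above replicate 1 by about as much, so the ranges overlapped. The mean difference of 0.46 had a 95% interval of -0.17 to 1.10 (limma adjusted p = 0.281), and replicate 3 differed by -0.15. TGFB3, on chromosome 14, ran the other way across the array sets. It read 7.65, 7.45 and 9.30 in SID, 7.68, 7.66 and 9.06 in SCR and 8.91, 8.91 and 9.14 in UT arrays. The SID and SCR values of replicates 1 and 2 were all below 8 and all others above 8.9. Their ranges did not overlap, but the difference of -0.11 was small (95% interval -0.39 to 0.16, limma adjusted p = 0.531).

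LTBP1, on chromosome 2, ties latent TGF-β to the matrix. It read 9.64, 9.34 and 10.48 in SID, 9.46, 9.64 and 10.45 in SCR and 10.91, 10.78 and 10.99 in UT arrays. All peptide-treated arrays were below all UT arrays, replicate 3 included, while SID and SCR overlapped. SID minus SCR was 0.18, -0.30 and 0.03 in the 3 replicates, and it is the gene of the 9 with opposite signs in replicates 1 and 2. On all arrays LTBP1 differed from UT by -1.07 in SID (SE 0.34, limma adjusted p = 0.388) and by -1.04 in SCR (SE 0.34, adjusted p = 0.332), neither of which passed the test.

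For the signaling receptors, SID lay below SCR in TGFBR2 and above it in TGFBR1 in replicates 1 and 2. TGFBR2, on chromosome 3, the receptor that binds the ligand first, read 11.07, 10.67 and 10.24 in SID, 11.80, 11.91 and 10.18 in SCR and 10.07, 10.04 and 10.12 in UT arrays. The 2 SCR values were the highest, the 2 SID values lay between them and the rest, and replicate 3 lay just above UT in both groups. SID minus SCR was -0.73, -1.24 and 0.05 in the 3 replicates, with a mean of -0.99 in replicates 1 and 2 (95% interval -1.42 to -0.55, limma adjusted p = 0.0326). Over all arrays the difference was -0.64 (SE 0.45, adjusted p = 0.763). Leaving out SCR replicate 3 gave -1.20 (adjusted p = 0.0433), and TGFBR2 was then called, as were 1.15% of all probes. SCR then held arrays of the first set only, while SID kept replicate 3, so peptide and array set were mixed in that difference.

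TGFBR1, on chromosome 9, the kinase that acts on SMAD2 and SMAD3, read 11.90, 11.48 and 10.23 in SID, 11.17, 11.10 and 10.18 in SCR and 10.02, 9.58 and 9.99 in UT arrays. SID was above SCR in replicates 1 and 2 with no overlap, and both groups were above UT on every array. SID minus SCR was 0.73, 0.38 and 0.05 in the 3 replicates, and the mean of 0.56 in replicates 1 and 2 did not pass the test (95% interval 0.12 to 1.00, limma adjusted p = 0.0988). Against UT the difference over all arrays was 1.34 in SID (SE 0.45, adjusted p = 0.388) and 0.95 in SCR (SE 0.45, adjusted p = 0.362).

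The co-receptors do not signal on their own. TGFBR3, or betaglycan, on chromosome 1, presents TGFB2 to TGFBR2. It read 10.24, 10.22 and 10.56 in SID, 9.69, 9.81 and 10.35 in SCR and 10.66, 10.70 and 10.85 in UT arrays. The SID value was above the SCR value in each of the 3 replicates, by 0.56, 0.41 and 0.21, and all peptide-treated arrays were below all UT arrays. The mean difference in replicates 1 and 2 was 0.48 (95% interval 0.24 to 0.72, limma adjusted p = 0.0401), and over all arrays 0.39 (95% interval -0.03 to 0.82, adjusted p = 0.67). SCR minus UT was -0.79 (SE 0.18, adjusted p = 0.332) and SID minus UT -0.39 (SE 0.18, adjusted p = 0.388). ENG, or endoglin, on chromosome 9, is the co-receptor known best from endothelium. It read 8.18, 8.61 and 10.91 in SID, 8.78, 9.06 and 10.77 in SCR and 10.74, 10.93 and 10.79 in UT arrays. In replicates 1 and 2 both groups were below 9.1, SID being the lower without overlap, while replicate 3 of both lay within the range of UT. The mean difference of -0.52 in these replicates did not pass the test (95% interval -1.03 to -0.01, limma adjusted p = 0.155).

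TGFBI, on chromosome 5, encodes a secreted matrix protein and was named for its induction by TGF-β. It read 12.07, 12.28 and 10.64 in SID, 11.96, 11.85 and 10.65 in SCR and 10.67, 10.86 and 10.76 in UT arrays. Replicates 1 and 2 of both peptides were the highest, SID above SCR by 0.11 and 0.43, and replicate 3 of both was below every UT array. The mean difference of 0.27 in replicates 1 and 2 did not pass the test (95% interval -0.03 to 0.57, limma adjusted p = 0.199).

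**Figure D2:**
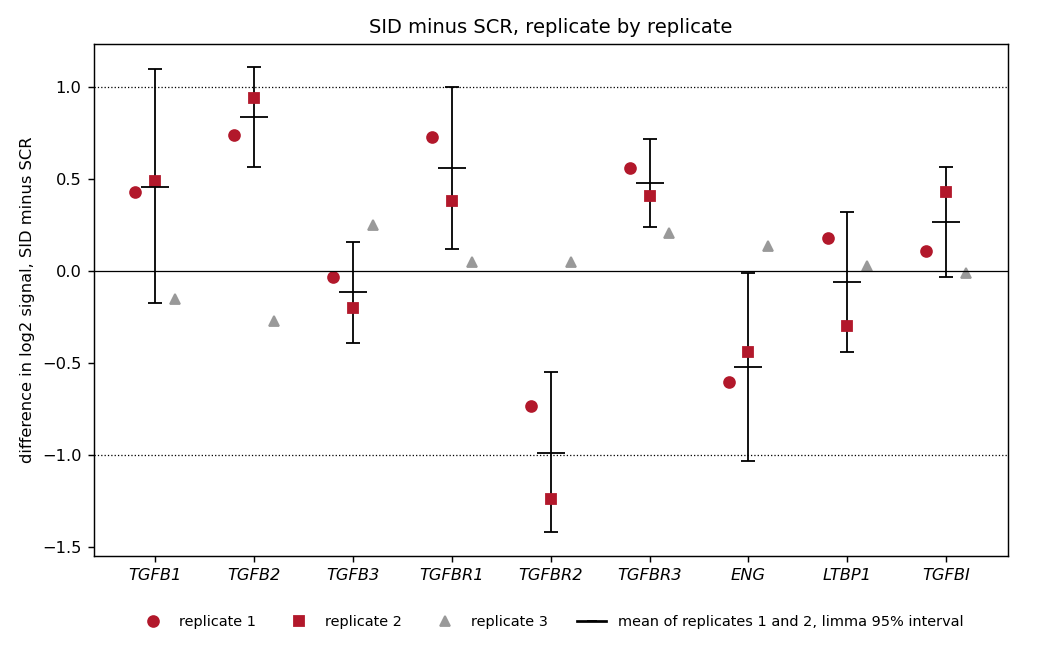
The difference of SID minus SCR in log2 signal (vertical axis) for each of the 9 genes (horizontal axis), with a point per replicate, and the mean of replicates 1 and 2 with its 95% interval from limma. Dotted lines mark a difference of 1 in either direction. TGFB2 at 0.84 and TGFBR2 at -0.99 lie farthest from 0, and the replicate 3 points lie between -0.27 and 0.25.

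Over the 9 genes, 7 had SID and SCR ranges in replicates 1 and 2 that did not overlap, against 58.9% of all probes, and 8 had the same sign in both replicates, against 67.8%. Past 0.3 with the same sign in both were 6 of them (TGFB1, TGFB2, TGFBR1, TGFBR2, TGFBR3 and ENG), against 24.2% of all probes. The median size of the difference in these replicates, without its sign, was 0.48 for the 9 genes and 0.18 for all probes. In replicate 3 it was 0.14 for the 9 genes and 0.10 for all probes. With all 3 arrays per group, 0 of 9 ranges of SID and SCR were free of overlap, against 5.66% of all probes.

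Against UT cells, the ranges of 3 SID and 3 UT arrays did not overlap in 4 of 9 genes, against 18.7% of all probes. These were TGFBR1, TGFBR2, TGFBR3 and LTBP1. The ranges of SCR and UT did not overlap in the same 4, against 21.5%. These comparisons share the UT arrays. None of the 9 genes was called for SID or for SCR, as was none of all probes (0.0%). At an unadjusted p under 0.05, limma passed TGFBR1 and LTBP1 for SID (12.5% of all probes) and TGFBR2, TGFBR3 and LTBP1 for SCR (14.4% of all probes). Without SID replicate 3, 7 of 9 genes were called for SID minus UT, against 10.0% of all probes. Without SCR replicate 3, TGFBR2 and LTBP1 were called for SCR minus UT, against 5.5% of all probes. With array weights, which gave replicate 3 of SID and SCR the lowest weights, 7 of 9 genes were called for SID minus UT (12.3% of all probes), 8 for SCR minus UT (10.9%) and 0 for SID minus SCR (3.91%). Replicates 1 and 2 of SID and SCR did not overlap the other 5 arrays in any of the 9 genes, against 32.0% of all probes, and in all but TGFBR3 the gap of the means was past 1, against 10.4% of all probes. Treatment and array set cannot be told apart in that gap, since all UT arrays lie in one set. Where replicate 3 alone was set against UT, with the spread taken from UT, none of the 9 genes passed, nor did any of all probes (0.0%). TGFB2 then differed by -0.55 in SID (limma adjusted p = 0.301) and LTBP1 by -0.44 in SCR (adjusted p = 0.493).

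Downstream of the receptors, and among all listed genes of the pathway, the array sets lay farthest apart in SMAD4, the partner that SMAD2 and SMAD3 need in the nucleus. SMAD4 read 11.18, 11.14 and 5.76 in SID, 10.60, 10.61 and 5.69 in SCR and 5.71, 5.84 and 6.11 in UT arrays. Replicates 1 and 2 thus placed it at the 81.3 to 88.5 percentile of their arrays and the other 5 arrays at the 10.1 to 16.4 percentile. SID exceeded SCR for SMAD4 by 0.56 within replicates 1 and 2 (limma adjusted p = 0.0266) and by 0.07 in replicate 3. SMAD2 and SMAD3 went opposite ways across the sets. SMAD2 read 10.90, 10.91 and 11.76 in SID, 10.52, 10.44 and 11.77 in SCR and 12.08, 11.92 and 12.11 in UT arrays. SMAD3 read 12.05, 12.05 and 10.76 in SID, 11.95, 12.24 and 10.74 in SCR and 10.93, 10.89 and 10.97 in UT arrays. Among genes that store or free latent TGF-β, the fibrillin FBN2, a matrix anchor, read 6.40, 6.48 and 10.32 in SID, 6.39, 6.33 and 10.82 in SCR and 10.79, 10.37 and 10.61 in UT arrays. THBS1, a secreted activator of latent TGF-β, read 13.56, 13.57 and 11.24 in SID, 13.38, 13.29 and 11.02 in SCR and 10.97, 10.83 and 11.04 in UT arrays. These genes other than SMAD4 were chosen after their values were seen, for the gap between the array sets.

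**Figure D3:**
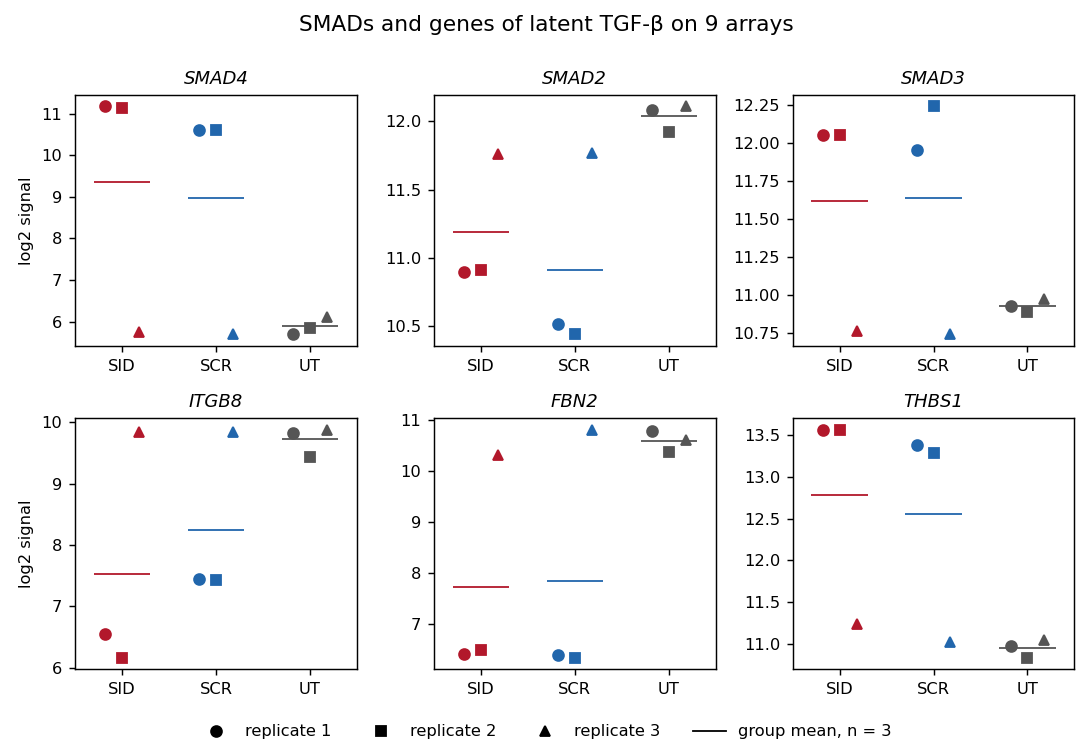
The log2 signal of SMAD4, SMAD2, SMAD3, ITGB8, FBN2 and THBS1 (vertical axes, scaled to each gene) in SID, SCR and UT cells, with a point per array, its shape giving the replicate, and a line at the mean of 3 arrays. SMAD4 lies above 10.5 in replicates 1 and 2 of SID and SCR and between 5.69 and 6.11 in the other 5 arrays.

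The other genes of the pathway were followed as lists, which together with the 9 genes were chosen with earlier results of these arrays known. On all arrays none of their genes was called. Within replicates 1 and 2, calls needed the 2-fold limit again, against 1.77% of all probes called higher and 2.64% called lower. Of 15 genes of the latent complex, its storage and activation, 11 were higher and 4 lower in SID, and ITGB8, an integrin subunit that frees latent TGF-β, was called lower. ITGB8 read 6.54, 6.16 and 9.84 in SID, 7.44, 7.43 and 9.84 in SCR and 9.83, 9.44 and 9.88 in UT arrays, a difference of -1.08 in replicates 1 and 2 (limma adjusted p = 0.0257). The integrin subunit ITGB5 differed by 0.85 (adjusted p = 0.0359) and the fibrillin FBN1 by -0.87 (adjusted p = 0.0438), both short of the 2-fold limit. Among 12 measured ligands and traps of the activin branch, 9 were higher and 3 lower, and FSTL3, which binds activins, was called higher by 1.01 (adjusted p = 0.0352). GDF15, a stress-induced cytokine, had a larger difference of 2.05 that did not pass (adjusted p = 0.069), with 11.12, 12.50 and 11.69 in SID, 9.51, 10.01 and 11.53 in SCR and 11.55, 11.57 and 11.54 in UT arrays. INHBB, an activin subunit, differed by -0.51 (adjusted p = 0.0346).

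Of 9 other receptors of the superfamily, BMPR1B, a type I receptor for bone morphogenetic proteins, was called lower (-1.14, limma adjusted p = 0.0162), while ACVR1 (0.35, adjusted p = 0.249) and ACVR2B (0.39, adjusted p = 0.103) did not pass. None of 11 measured signal transducers was called, with 5 higher and 6 lower. Of these the adaptor DAB2 differed by 0.47 (adjusted p = 0.11) and USP15, which removes ubiquitin from the receptor, by -0.68 (adjusted p = 0.0711). Of 14 inhibitors, 8 were higher and 6 lower, and TGIF1 was called higher. It read 12.81, 12.91 and 12.14 in SID, 11.65, 11.61 and 12.09 in SCR and 12.31, 12.33 and 12.28 in UT arrays, a difference of 1.23 in replicates 1 and 2 (adjusted p = 0.016) and of 0.05 in replicate 3. The UT values lay between those of SID and SCR of replicates 1 and 2. SMAD7, which blocks TGFBR1 and is itself a target, differed by 1.15 (adjusted p = 0.094), and PMEPA1, another target that restrains SMADs, by -0.93 (adjusted p = 0.0646).

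Of 28 measured target genes of TGF-β, SID values were higher for 17 and lower for 11. The median difference of these targets was 0.11, against 0.04 for all probes, and 2 were called, both higher. NEDD9, a scaffold protein of cell migration, read 9.62, 9.62 and 9.13 in SID, 7.56, 7.28 and 9.11 in SCR and 9.49, 9.68 and 9.41 in UT arrays. ACTA2, smooth muscle actin, read 9.37, 9.50 and 8.89 in SID, 7.95, 7.89 and 8.78 in SCR and 8.70, 8.64 and 8.79 in UT arrays. For both genes it was SCR replicates 1 and 2 that lay lowest of all arrays. Their differences were 2.19 and 1.51 in replicates 1 and 2 (limma adjusted p = 0.016 each) and 0.02 and 0.11 in replicate 3. In replicate 3 no gene of any of these pathway lists differed between SID and SCR by more than 0.49.

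**Figure D4:**
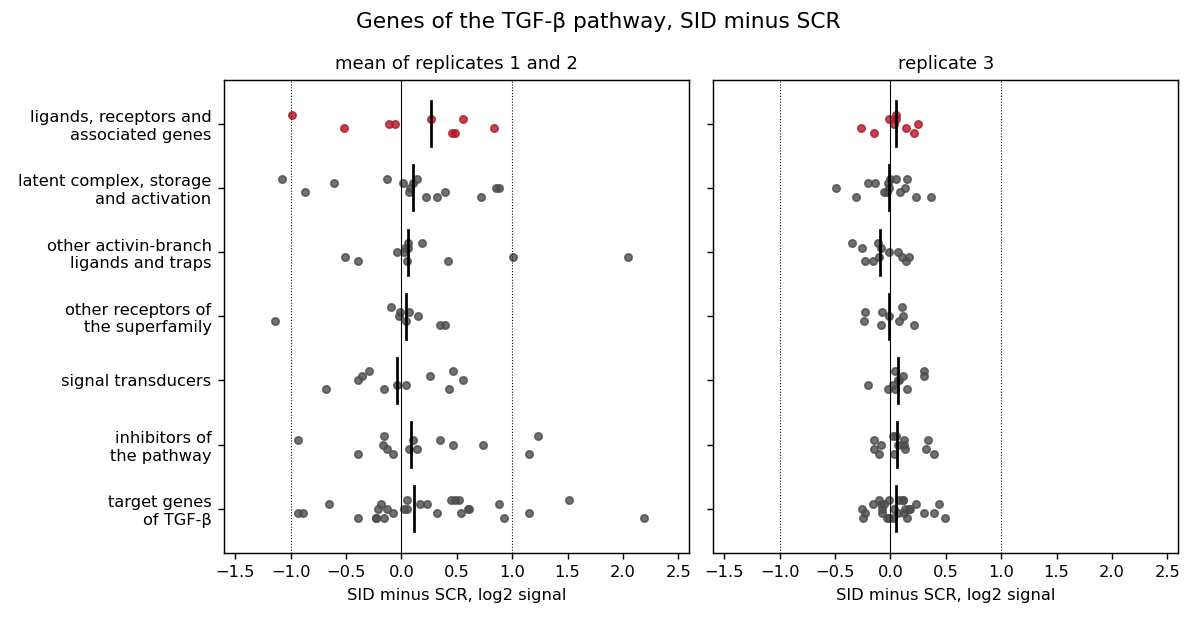
The difference of SID minus SCR in log2 signal (horizontal axes) for the genes of each list (rows), as the mean of replicates 1 and 2 on the left and in replicate 3 on the right, with a point per gene, a bar at the median of the list and dotted lines at a difference of 1. The 9 ligands, receptors and associated genes, in red, have a median of 0.27 on the left and 0.05 on the right.

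Likeness to other genes was measured as the root mean square distance between the 9 array values after each gene was centered on its own mean. The nearest gene was PTGER2 for TGFB1 (0.105 log2 units), SPRY2 for TGFB2 (0.0993), DMAC1 for TGFB3 (0.0978), BTBD9 for TGFBR1 (0.159) and ANK2 for TGFBR2 (0.0855). It was PTPN6 for TGFBR3 (0.0698), SLC45A4 for ENG (0.143), HELB for LTBP1 (0.0882) and MT1X for TGFBI (0.0675). The next nearest were SEC22C, PDP1, USP43, HERC3, TRIM25, APH1B, SGK1, LUZP2 and ZNF134, in the same order of the 9 genes, at 0.0704 to 0.165. SPRY2, a feedback inhibitor of growth factor signaling, read 11.59, 11.77 and 8.95 in SID, 10.82, 10.69 and 8.97 in SCR and 9.34, 9.26 and 9.30 in UT arrays. TRIM25, a ubiquitin ligase and the next nearest to TGFBR2 after ANK2, read 11.04, 10.56 and 10.33 in SID. It read 11.53, 11.71 and 10.10 in SCR and 10.09, 10.00 and 10.05 in UT arrays. SPRY2 and TRIM25 followed the split of the arrays as well as the order of SID and SCR within replicates 1 and 2. Since they were picked for nearness over these same 9 values, this follows from the choice and is no separate result.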

How the data were processed

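RNA of 9 MDA-MB-231 samples, 3 per group, was measured on Affymetrix Human Gene 1.0 ST arrays. The authors normalized the signals between arrays before they deposited them as log2 values per transcript cluster, and their processing notes name RMA, Expression Console and Transcriptome Analysis Console, without versions or settings. The log2 scale was inferred from the range, 3.75 to 14.94, and from array medians of 7.68 to 7.77. The methods of the study describe 2 replicates and an analysis of single probes with ChipInspector, which cannot be repeated on these values. The deposited values stand in 1 table with 33297 probes. A fold change table among the study's supplements was not used.

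Probes with 1 gene symbol (19460) were compared with limma 3.58.1 in R 4.3.3 on group means of all 9 arrays, with Benjamini-Hochberg adjustment over all of these probes. The test was also run on simulated data, whose spread was taken from replicates 1 and 2 and which lacked the split between the array sets. Where a gene has several probes, the one with the highest mean stands for it. Besides the 9 genes, the 3 genes of each pathway list with the largest mean difference between SID and SCR are named, and for likeness the 2 nearest genes, while other genes are said to be chosen later. The members and lists were chosen with earlier results of these data known. The series describes the replicates as independent.

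Replicate numbers were checked for pairing by the correlation of deviations from the group means, which was 0.77, 0.57 and 0.79 between SID and SCR of the same number, and at most 0.21 with UT. Replicate 3 lay apart from replicates 1 and 2 in both SID and SCR, which raises these correlations whether or not the arrays were paired. They therefore cannot show pairing, and the labels name no shared day or batch. The main fit took no pairing, and a fit with the replicate number as a block was run beside it. The comparisons within replicates 1 and 2, with replicate 3 against UT and with array weights were also run beside it. The number of arrays limits the precision.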

Additional observations from a re-analysis of the deposited data

How the results depend on the processing

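None of the 9 genes was called for SID minus SCR under any alternative run other than leaving out SCR replicate 3, when TGFBR2 was. Without replicate 3 of SID or of SCR, that group held arrays of the first set only, so SID minus SCR then mixed peptide and array set. With each array left out in turn, the count of the 9 genes called ran from 0 to 1 for SID minus SCR, from 0 to 7 for SID minus UT and from 0 to 2 for SCR minus UT, and all probes called ran from 0 to 648, 0 to 1946 and 0 to 1071 in these comparisons. The highest counts for SID minus UT, and of all probes for SID minus SCR, came without SID replicate 3. Those for SCR minus UT, and the 1 gene for SID minus SCR, came without SCR replicate 3, when 223 probes were called for SID minus SCR. With array weights, which ran from 0.1375 for SID replicate 3 to 6.923 for UT replicate 3, 761 probes were called for SID minus SCR, 2389 with 7 of the 9 genes for SID minus UT and 2116 with 8 for SCR minus UT. Replicates 1 and 2 alone gave 859 probes for SID minus SCR. In that fit the count of genes with an adjusted p under 0.05 was 3, 5 with the replicate block and 0 with the t-test. The block left 1 residual degree of freedom there. With an array left out, a single array stood for a group and 1 residual degree of freedom was left, so no count is given. With the replicate block on 9 or on 6 arrays, 0 of the 9 genes and 0 probes were called, so the block changed no other call.

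SID minus SCR turned its sign in several genes where no difference was called. With array weights TGFB3 was -0.07 and LTBP1 0.08, and in replicates 1 and 2 TGFB3 was -0.11. With each array left out in turn, the difference ran from -0.14 to 0.80 for TGFB1, -0.14 to 1.45 for TGFB2, -0.58 to 0.47 for TGFB3, -1.14 to 0.32 for ENG, -0.36 to 0.27 for LTBP1 and -0.24 to 0.69 for TGFBI, and within replicates 1 and 2 from -0.21 to 0.09 for LTBP1. TGFBR1, TGFBR2 and TGFBR3 kept their sign in these fits, although in replicate 3 alone TGFBR2 was 0.05. In replicate 3 against UT, chosen after seeing the data, SID minus UT turned to -0.24 for TGFB1, -0.55 for TGFB2, 0.32 for TGFB3, 0.09 for ENG and -0.13 for TGFBI. SCR minus UT turned to -0.09 for TGFB1, -0.28 for TGFB2, 0.07 for TGFB3 and -0.11 for TGFBI. The cause of these shifts was not tested. The alternatives within replicates 1 and 2 were also chosen after seeing the data.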
